A study of Mus musculus with 8 samples.

Results

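The control cultures were naive CD4 T cells activated for 20 h with antibodies to CD3 and CD28 and no added iron. They were chosen by the label "Ctrl" alone, which 4 of the 8 samples of the series carry, and no measured value entered that choice. The labels place 1 control culture with each of 4 numbered mice, called here mouse 1 to mouse 4. All 4 mice were wild-type C57BL/6, and the labels give neither their sex nor their age. The cells were obtained by flow sorting from peripheral lymph nodes and kept in RPMI GlutaMAX medium with 10% fetal calf serum. The antibodies were coated on the plate, at 4 µg/mL each. The other 4 samples, cultures given an iron salt, were not analysed here. No resting culture was among the samples, so every value below is a level after activation and none is a change.

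A naive CD4 T cell is a small, quiescent lymphocyte that recirculates through lymph nodes under the transcription factor Klf2 and the homing receptor Ccr7. Signals through the T cell receptor and CD28 switch on NF-κB, NFAT and AP-1, induce Myc and the interleukin 2 receptor, and start a programme of growth that precedes the first division. That programme raises glucose and amino acid uptake, ribosome production and iron uptake through the transferrin receptor Tfrc. Effector cytokines of the helper lineages usually follow later and need polarising cytokines.

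RNA was sequenced from 250 ng of total RNA per culture with a stranded mRNA library kit, and 25478740 to 37350654 counts were assigned to genes per library. Levels are given as TPM (each library's transcripts scaled to the same total), which is corrected for gene length and can be compared between genes. A value written with ± is the mean and SD over the 4 cultures (n = 4), and values listed by mouse follow the order of mouse 1 to mouse 4. The CV is the SD as a percent of the mean. Every pair of libraries differed by more than sampling noise (chi-square over degrees of freedom 5.83 to 11.4), so each was counted as 1 replicate. Pearson's r of log2(TPM + 1) between libraries was 0.992 to 0.993 across 10872 genes, which are not independent replicates. A gene was called detected at a TPM of at least 1, which 10872 of 57010 genes reached in all 4 cultures. Of all genes, 20.6% reached a mean TPM of 1, 2.86% reached 100 TPM and 59.8% had 0 counts in all 4 libraries. Counts of list members below are to be read beside these shares.

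The cultures carried the transcripts of CD4 T cells throughout. All 20 genes of the T cell receptor and its proximal signalling reached a mean TPM of 1, against 20.6% of all genes, and 19 of the 20 reached 100 TPM, against 2.86% of all genes. The antigen receptor was led by the constant segments Trbc2 (1011 ± 35.96 TPM) and Trac (856 ± 15.6 TPM). The CD3 chains Cd3e, Cd3g, Cd3d and Cd247 stood at 201, 161, 119.6 and 113 TPM. The coreceptor Cd4 was at 299, 299.9, 306 and 316 TPM by mouse. The highest culture stood 5.71% above the lowest. The kinases Zap70 and Lck, which start the signal, were at 366 ± 8.23 and 324 ± 8.89 TPM, and the adaptor Lat at 346 ± 7.57 TPM. Cd28, the receptor of the second antibody, was the lowest of the list at 84.4 ± 6.71 TPM. Cd5, which dampens T cell receptor signals, was at 615 ± 14.7 TPM and stood above every CD3 chain.

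Markers of other cells were near 0. Markers of B cells, CD8 T cells, myeloid and dendritic cells, NK and gamma-delta T cells, red cells and platelets, or stroma were counted. Of these 54 genes 6 reached a mean TPM of 1, against 20.6% of all genes. The B cell genes Cd22 and Blk had 0 counts in all 4 libraries, and Ms4a1 averaged 0.0125 TPM. Ighm, the heavy chain constant gene of IgM, was the exception in that list at 98.4 ± 4.89 TPM, while the light chain gene Igkc averaged 0.117 TPM and 114 of 115 heavy chain V segments had 0 counts. Cd8b1 was at 9.92 ± 1.18 TPM while its partner Cd8a was at 0.055 TPM. The macrophage and neutrophil genes Lyz2, Adgre1, S100a8 and S100a9 had 0 counts throughout. Vim, a structural gene that lymphocytes also express, was at 7.59 ± 0.758 TPM. In such bulk samples fewer cells of a type and less RNA per cell cannot be told apart.

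Globin transcripts set mouse 3 apart. The alpha-globin gene Hba-a1 was at 0, 0, 5.22 and 0 TPM and the beta-globin gene Hbb-bs at 0, 0, 2.9 and 0 TPM by mouse. Only the culture of mouse 3 held counts of these genes. The summed red cell and platelet markers were 15.4 TPM there and 0.32 to 1.78 TPM in the other cultures. Without mouse 3, 4 of the 54 markers reached 1 TPM. The part of these cells in other values of mouse 3 was not tested. Xist, the RNA that silences an X chromosome in females, was at 51.3, 49.1, 54.4 and 57.5 TPM by mouse, and the Y-linked genes Ddx3y, Eif2s3y, Kdm5d and Uty had 0 counts in every library.

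**Figure D1:**
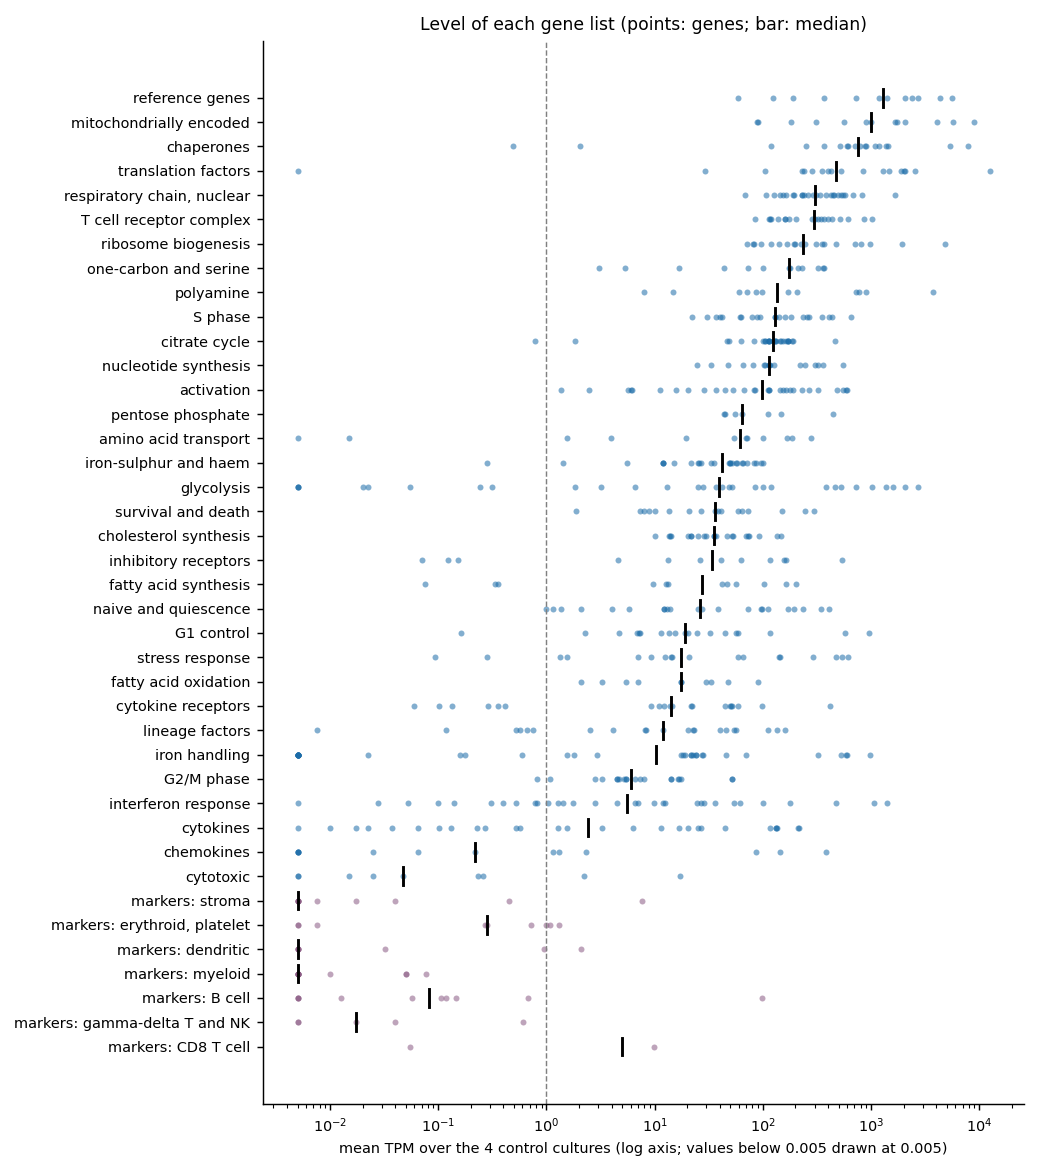
Mean TPM over the 4 control cultures (log axis) for every gene of each list, with the median of the list as a black bar and the detection threshold of 1 TPM as a dashed line. Translation, chaperone and T cell receptor genes had medians of 293 TPM or more, while the medians of cytokine, chemokine and cytotoxic genes lay below 3 TPM and the markers of other cells (purple) clustered near 0.

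The most abundant transcripts were those of the protein synthesis machinery. The elongation factor Eef1a1 led all genes at 12558, 12359, 12492 and 12549 TPM by mouse, and its CV of 0.734% was among the lowest seen. The 50 most abundant genes held 22.6% of all TPM. Among the 30 most abundant genes, 17 encoded ribosomal proteins, and all 81 ribosomal protein genes counted here were detected and together held 24.3% ± 0.516 of all TPM. Rplp1 (7042 ± 211 TPM), Rpl41 (6663 ± 88.7 TPM) and Rps2 (5752 ± 78.1 TPM) led them. The other abundant genes were chaperones (Hspa8, 7838 ± 264 TPM; Hsp90ab1, 5396 ± 117 TPM), the prolyl isomerase Ppia (5584 ± 64.3 TPM), the nucleolar protein Npm1 (4845 ± 262 TPM), prothymosin Ptma (4678 ± 143 TPM) and Actb (4289 ± 55.97 TPM). The 100 most abundant genes were short, with a median effective length of 595 bases against 1988 bases for all detected genes.

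Several of the most abundant entries were copies of mitochondrial genes. The mitochondrial genome encodes 13 subunits of the respiratory chain and ATP synthase, and mt-Atp8 (8915 ± 830.4 TPM), mt-Co1 (5677 ± 264 TPM) and mt-Nd1 (4022 ± 234 TPM) were among the 30 most abundant genes. The short mt-Atp8 overlaps mt-Atp6, so its own level is uncertain. By contrast mt-Atp6, mt-Co2 and mt-Co3 stood at only 180.4, 90.2 and 87.9 TPM. Pseudogenes outside the mitochondrial genome with identical sequence were listed far higher. Gm10925 matched mt-Atp6 over 678 bases with 0 mismatches and was at 5726 ± 299.5 TPM. Gm28661 matched mt-Co2 over 681 bases and Gm28437 matched mt-Co3 over 783 bases, also with 0 mismatches, and they were at 5215 ± 339 and 4901 ± 312 TPM. Reads of an identical pair cannot be assigned to one of the 2 genes, so the level of each alone is uncertain. The sum of each pair was 5906 ± 373 TPM for mt-Atp6, 5305 ± 341 TPM for mt-Co2 and 4989 ± 303 TPM for mt-Co3. The sums had CVs of 6.32%, 6.42% and 6.07%, whereas mt-Atp6, mt-Co2 and mt-Co3 alone had CVs of 43.1%, 34.9% and 26.7%. Gm10222 likewise matched mt-Nd4l over 294 bases with 0 mismatches, while Gm28438 differed from mt-Nd3 at 1 of 345 bases.

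All 30 activation genes reached a mean TPM of 1 and 15 of them 100 TPM, against 20.6% and 2.86% of all genes. The NF-κB subunit gene Nfkb1 led at 593 ± 23.5 TPM, followed by the OX40 gene Tnfrsf4 at 583 ± 11.9 TPM. The transcription factor Irf4, which tunes the strength of the effector response, was at 481 ± 28.3 TPM. Myc, the factor that drives the growth programme, was at 559, 550.3, 556 and 523 TPM by mouse. Il2ra, the high-affinity chain of the interleukin 2 receptor, was at 155, 146, 159.6 and 154 TPM. Both genes varied little, with CVs of 3.02% and 3.63%. Tfrc, the receptor that imports transferrin-bound iron, was at 338, 295, 340.4 and 324 TPM, and the culture of mouse 2 was the lowest. The costimulatory genes Tnfrsf18 (GITR, 145 ± 3.24 TPM), Tnfrsf9 (4-1BB, 113 ± 2.15 TPM) and Cd40lg (179 ± 16.2 TPM) were likewise abundant, and Icos was lower at 36.5 ± 1.94 TPM. Cd44, which marks cells that have met antigen, was at 52.9 ± 3.62 TPM.

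The AP-1 subunits covered a wide range of levels. Jund (231 ± 17.01 TPM), Junb (165 ± 5.34 TPM) and Batf (44.9 ± 3.48 TPM) were present at 20 h, while Jun (5.64 ± 1.52 TPM), Fos (2.48 ± 1.13 TPM) and Fosb (1.37 ± 0.939 TPM), the classic immediate early members, were the lowest of the list. Fosb was at 0.62, 1.62, 0.64 and 2.59 TPM by mouse, and Fos at 1.44, 2.23, 2.16 and 4.08 TPM. Mouse 4 was the highest for both. The early response factors Egr1, Egr2 and Egr3 stood at 15.7, 28.4 and 20.3 TPM, and Egr2 held 44.0% ± 0.356 of the TPM of the 4 Egr genes. Of the orphan receptors that report T cell receptor signalling, Nr4a1 (112 ± 8.38 TPM) and Nr4a3 (84.5 ± 9.18 TPM) were both far above Nr4a2 (6.01 ± 1.53 TPM).

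**Figure D2:**
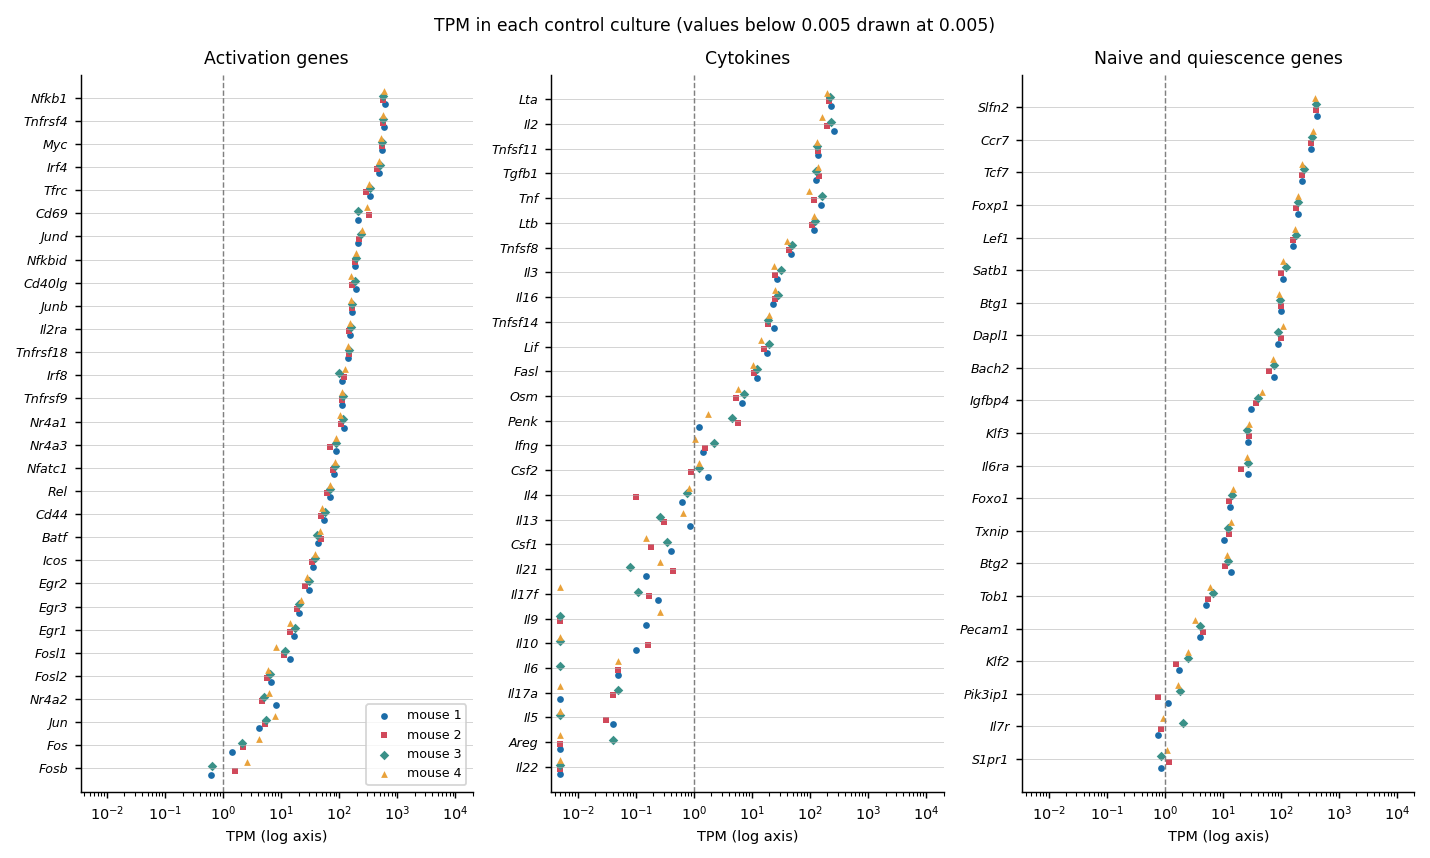
TPM of activation, cytokine and naive or quiescence genes in each of the 4 control cultures (log axis, 1 marker per mouse; dashed line at 1 TPM). Most activation genes sat within a narrow band over the 4 cultures, Cd69, Jun, Fos and Fosb being wider, while the 12 cytokine genes below 1 TPM scattered from culture to culture.

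Cd69, an early activation receptor that retains lymphocytes in the node, was the exception among the abundant activation genes. It was at 210.2, 329, 214 and 305 TPM by mouse, a CV of 23.2%. Mice 2 and 4 were high, mice 1 and 3 were low, and no value lay between. The same split was shared by its neighbours on chromosome 6. For this, 8234 expressed genes (mean TPM of at least 5 and mean count of at least 100) were put in chromosomal order. In 20 consecutive genes, from Ndufa9 to Etv6, mice 2 and 4 were above mice 1 and 3. That order held in 20.4% of the 7845 ordered genes on other chromosomes. The values used were CPM (read counts scaled to a common library size by TMM, with no correction for length). The stretch was chosen after its values were seen, and its ends were set where this order first failed. All 20 genes thus hold the order by construction, and the share carries no test. The median deviation of the 20 genes from their own means was -0.29, 0.32, -0.31 and 0.27 on the log2 scale for mice 1 to 4. In ratios between single mice, the median over the 20 genes was 1.56 for mouse 2 over mouse 1, 1.56 for mouse 2 over mouse 3, 1.45 for mouse 4 over mouse 1 and 1.49 for mouse 4 over mouse 3. Between mouse 2 and mouse 4 the median ratio was 1.03, and between mouse 1 and mouse 3 it was 1.02.

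Beyond the ends of the stretch, which the order of the mice had set, the deviations were small. The 10 expressed genes before Ndufa9, among them Gapdh, Cd27, Tnfrsf1a and the adjacent Cd9, had median deviations between -0.02 and 0.02 in the 4 cultures. The 10 genes after Etv6, from Lrp6 to Arhgdib, had medians between -0.01 and 0.02. Cd9, a tetraspanin gene, was at 38.6, 37.7, 35.3 and 36.3 TPM by mouse. Of the 20 genes, 19 spanned at least 0.5 on the log2 scale between the lowest and the highest mouse. The last one, Etv6, spanned 0.19, near the median of 0.16 on other chromosomes, so that end is not closely placed. The widest of all 7854 windows of 20 neighbouring genes spanned 0.63 between the medians of the mice and shared 19 of its genes with this stretch, while the widest window that began and ended outside it spanned 0.17. The annotation lists 275 genes between Ndufa9 and Etv6, most of them silent here. Of the other 255, 189 had 0 counts in all 4 libraries. With the thresholds lowered to a mean TPM of 1 and a mean count of 20, 26 of 28 genes in the stretch, the first 20 included, had mice 2 and 4 above mice 1 and 3. By TPM, which also moves with the length estimated in each library, 18 of the 20 did, the exceptions being Parp11 and Etv6.

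Members of the stretch with known roles in these cells included more than Cd69. Ccnd2, the main D cyclin of activated T cells, was at 509.7, 556, 452 and 778 TPM by mouse. Ybx3, an RNA-binding protein, was at 532, 814, 525 and 778 TPM, and Fkbp4, an Hsp90 cochaperone, at 472, 658, 447 and 689 TPM. Ndufa9, a subunit of respiratory complex I, was at 96.3, 141, 87.1 and 130.4 TPM, and the mitotic transcription factor Foxm1 at 4.13, 8.45, 4.64 and 11.1 TPM. In each of these 5 genes mice 2 and 4 were above mice 1 and 3 without overlap. Clec2d and Clec2i, lectin-like genes of the same complex as Cd69, and Tigar, a regulator of glycolysis, were also among the 20. Foxm1 and Rad51ap1, which are linked to division and repair, had the widest ranges of the stretch. Cd69 and Ccnd2 thus varied between these cultures together with their chromosomal neighbours, and the cause was not tested.

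**Figure D3:**
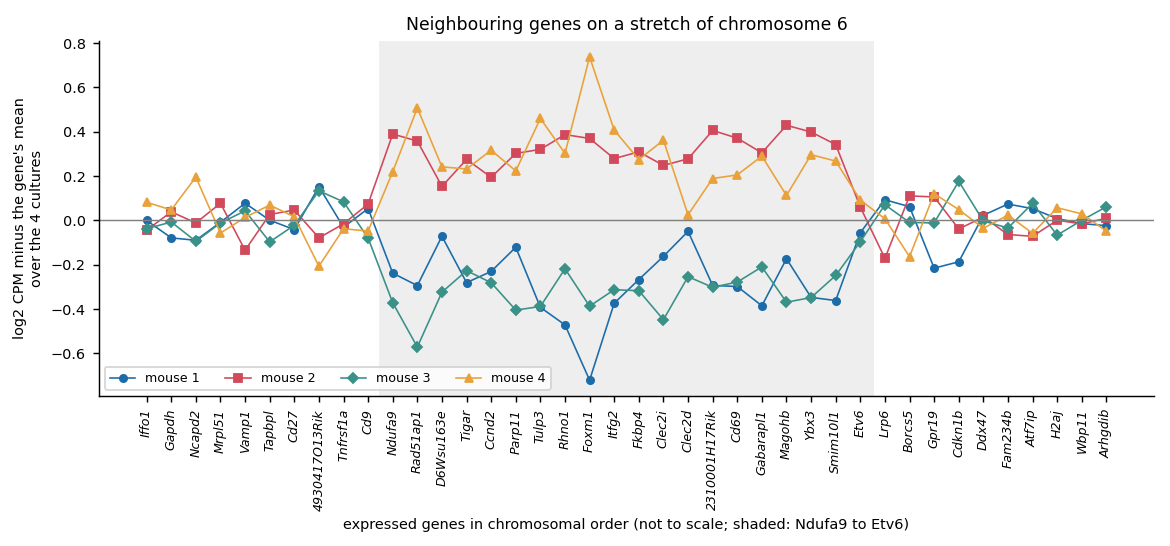
Deviation of each gene from its own mean over the 4 control cultures (log2 CPM), for expressed genes in the order in which they lie on chromosome 6, 1 line per mouse; the shaded part runs from Ndufa9 to Etv6. The lines of mice 2 and 4 run at about 0.3 and those of mice 1 and 3 at about -0.3 inside the shaded part, and all 4 lie near 0 on both sides.

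Genes of the naive state ranged from abundant to near the detection limit. All 22 reached a mean TPM of 1 and 6 reached 100 TPM, against 20.6% and 2.86% of all genes. The first count fell to 21 when mouse 2, 3 or 4 was left out and was 19 at a threshold of 2 TPM. Slfn2, which guards quiescence, was at 404 ± 15.2 TPM, the homing receptor Ccr7 at 343 ± 14.1 TPM, and the transcription factors Tcf7 and Lef1 at 236 ± 7.87 and 171 ± 10.5 TPM. At the other end stood Klf2 (2.08 ± 0.497 TPM) and a gene that it is known to control, the egress receptor S1pr1, at 1.0 ± 0.164 TPM. Il7r, the survival receptor of naive cells, was at 0.75, 0.87, 2.05 and 0.92 TPM by mouse, with mouse 3 the highest. The growth-restraining genes Pik3ip1 and Btg2 were at 1.35 and 12.1 TPM. The mean of Slfn2 was 404 times that of S1pr1. Among the remaining members, Foxp1 was at 193 ± 8.15 TPM, Bach2 at 72.6 ± 7.2 TPM and Foxo1, which drives Klf2 and Il7r in resting cells, at 13.9 ± 1.03 TPM.

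Of 28 cytokine genes, 16 reached a mean TPM of 1 and 6 reached 100 TPM, against 20.6% and 2.86% of all genes. The tumour necrosis factor family supplied most of the high ones: lymphotoxin genes Lta (215 ± 14.2 TPM) and Ltb (116 ± 5.17 TPM), Tnfsf11 (RANK ligand, 134 ± 3.84 TPM) and Tnf. Tnf was at 153, 116, 162 and 94.4 TPM by mouse, and Il2, the growth factor of activated T cells, at 261, 198, 226 and 161 TPM. Mice 1 and 3 were above mice 2 and 4 in both genes, as in 22.0% of all genes with a mean TPM of at least 1. Their CVs of 24.0% and 20.2% were far above the 2.87% of Tnfsf11. The regulatory cytokine gene Tgfb1 was at 132 ± 7.49 TPM. A middle group held Tnfsf8 (CD30 ligand, 44.7 ± 3.43 TPM), Il3 (26.8 ± 3.27 TPM), Lif (16.9 ± 2.31 TPM) and Fasl (11.4 ± 0.901 TPM). Penk, the enkephalin precursor gene, was at 1.24, 5.67, 4.44 and 1.77 TPM by mouse and had the widest spread of the cytokine genes above 1 TPM. Mice 2 and 3 were above mice 1 and 4, as in 9.62% of all genes with a mean TPM of at least 1.

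The signature cytokines of the helper lineages were near or below the detection threshold. Ifng was at 1.42, 1.56, 2.19 and 1.03 TPM by mouse and Il4 at 0.63, 0.10, 0.75 and 0.81 TPM. Il13 averaged 0.517 TPM, Il21 0.23 TPM, Il17a 0.0225 TPM, Il10 0.065 TPM and Il5 0.0175 TPM. Il22 had 0 counts in all 4 libraries, for which 3 counts per library would equal 0.115 to 0.174 TPM. The mean of Il2 was 136 times that of Ifng, and 103 to 184 times within single cultures.

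Chemokine genes were dominated by 3 members. Ccl4 (383 ± 10.9 TPM), Ccl3 (144 ± 8.39 TPM) and Xcl1 (86.3 ± 5.7 TPM), which attract other lymphocytes and dendritic cells, were abundant in every culture. The other 10 chemokine genes were at 2.31 TPM or lower, and Ccl2, Ccl22, Cxcl9 and Cxcl11 had 0 counts throughout, against 59.8% of all genes. Among 20 cytokine receptor genes, Il2rg, the chain shared by the interleukin 2 receptor family, led with 419.9 ± 6.92 TPM, and Il2rb was at 98.9 ± 7.65 TPM. The receptor genes for interleukins 12 and 18 were uneven. Il12rb1 was at 50.8 ± 6.07 TPM, while Il12rb2, Il18r1 and Il18rap averaged 0.355, 0.285 and 0.133 TPM.

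The master regulators of the helper lineages were transcribed at low levels. Among 21 lineage factors, Id3, which restrains effector fate, was the highest at 160.4 ± 7.19 TPM, and Zbtb7b, the factor of CD4 commitment, was at 45.7 ± 2.24 TPM. Of the regulators that define a lineage, Gata3 was at 8.26 ± 0.606 TPM, Bcl6 at 4.08 ± 0.469 TPM, Tbx21 at 2.5 ± 0.857 TPM and Foxp3 at 0.575 ± 0.145 TPM. Tbx21, which encodes T-bet, was at 1.7, 3.2, 1.82 and 3.28 TPM by mouse. Mice 2 and 4 were above mice 1 and 3 without overlap, an order seen in 14.2% of all genes with a mean TPM of at least 1. Prdm1 averaged 0.0075 TPM and Eomes 0.525 TPM. Among the signal transducers, Stat6 held 32.0% ± 0.440 and Stat5a 26.4% ± 1.04 of the TPM of 7 Stat genes.

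Inhibitory receptor genes were transcribed at 20 h, and 9 of 12 reached 1 TPM, against 20.6% of all genes. Cd200 was at 538 ± 24.7 TPM, Btla at 165 ± 12.3 TPM, Vsir at 156 ± 14.3 TPM and Pdcd1, which encodes PD-1, at 117, 112, 115 and 119 TPM by mouse. Lag3 (62.7 ± 3.68 TPM) and Ctla4 (41.4 ± 1.18 TPM) were lower, and Havcr2, which encodes TIM-3, averaged 0.070 TPM. Of 9 cytotoxic genes, Nkg7 (17.02 ± 0.926 TPM) and Gzmb (2.2 ± 0.581 TPM) reached 1 TPM, against 20.6% of all genes.

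Some glycolytic genes were among the most abundant metabolic genes, and 1 isoform dominated at several steps. The list as a whole had a median of 39.4 TPM, below the 123 TPM of the citrate cycle list. Of 30 glycolytic genes 22 reached 1 TPM and 10 reached 100 TPM, against 20.6% and 2.86% of all genes. Gapdh was at 2533, 2738, 2744 and 2876 TPM by mouse, Ldha, which makes lactate, at 1996, 1974, 2089 and 2084 TPM, and the pyruvate kinase gene Pkm at 1564, 1553, 1608 and 1647 TPM. The highest culture stood 13.6%, 5.83% and 6.04% above the lowest for these genes. Aldoa, Pgam1, Pkm and Ldha held 98.6% or more of the TPM of their families, Eno1 96.3% ± 0.299 and the lactate exporter Slc16a1 96.8% ± 0.323. Entry into the pathway was shared instead: Hk2 held 55.1% ± 1.75 and Hk1 44.8% ± 1.80 of hexokinase TPM, and Pfkp 56.5% ± 1.25 and Pfkl 40.4% ± 1.36 of phosphofructokinase TPM. Slc2a1, which encodes the glucose transporter GLUT1, held 74.7% ± 0.786 and Slc2a3 19.9% ± 1.08 of the glucose transporter TPM. At 48.2 ± 1.57 TPM, Slc2a1 was far below Ldha, whose mean was 42.2 times as high. In 13 of 27 gene families examined across all lists, 1 member held at least 90% of the TPM, and in 2, the Stat and Egr factors, no member held 50%. The pentose phosphate branch was led by Tkt (441 ± 7.5 TPM), while its entry enzyme gene G6pdx was at 44.2 ± 1.47 TPM.

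The mitochondrial and biosynthetic lists were also transcribed throughout. Of 27 citrate cycle and glutamine genes 26 reached 1 TPM and 21 reached 100 TPM, against 20.6% and 2.86% of all genes. Mdh2 (460.2 ± 5.45 TPM) led, 20 of the genes lay between 100 and 200 TPM, and the cytosolic isocitrate dehydrogenase Idh1 averaged only 0.777 TPM. Nuclear genes of the respiratory chain had a median of 299.97 TPM, with the ATP synthase subunit Atp5b at 1668 ± 40.4 TPM. The glutamine transporter Slc1a5 (280.1 ± 20.5 TPM) and both chains of the leucine transporter, Slc7a5 (184 ± 10.1 TPM) and Slc3a2 (168 ± 3.86 TPM), were abundant. The cystine transporter Slc7a11 averaged 0.015 TPM. Serine synthesis genes Phgdh (361 ± 21.9 TPM) and Psat1 (229.9 ± 6.67 TPM) and the mitochondrial one-carbon gene Shmt2 (367 ± 10.5 TPM) were high, as were the purine genes Impdh2 (546 ± 3.62 TPM) and Gart (357 ± 10.5 TPM). In polyamine synthesis, the rate-limiting Odc1 was at 729.9 ± 14.5 TPM and Eif5a, the translation factor that carries a residue made from spermidine, at 3769 ± 110.1 TPM.

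Genes of lipid synthesis and of fatty acid oxidation were both transcribed. Of 12 fatty acid synthesis genes 9 reached 1 TPM, with a median of 27.4 TPM, and all 10 fatty acid oxidation genes did, with a median of 17.6 TPM. Fasn (204 ± 9.07 TPM), Acly (163 ± 4.85 TPM) and the cholesterol gene Idi1 (147 ± 3.0 TPM) were among the highest, and all 22 cholesterol genes reached 1 TPM. Cpt1a, the entry enzyme of fatty acid oxidation, was at 2.37, 2.79, 4.22 and 3.69 TPM by mouse. Its muscle-type counterpart Cpt1b was at 2.21, 2.82, 1.03 and 2.3 TPM. Cpt1a was higher in mice 1, 3 and 4, and the pair was nearly equal in mouse 2. The balance depended on the scale: by CPM, Cpt1a held 77.1% and Cpt1b 21.3% of the 3 Cpt1 genes in the mean. Of the desaturases, Scd2 was at 12.7 ± 1.59 TPM and Scd1 averaged 0.075 TPM. Of 20 ribosome production genes all reached 1 TPM and 16 reached 100 TPM, with nucleolin (Ncl) at 1935 ± 107 TPM, Nop56 at 986 ± 36.3 TPM and fibrillarin (Fbl) at 708 ± 7.46 TPM. The inducible heat shock genes Hspa1a and Hspa1b averaged 0.487 and 2.04 TPM, against 7838 TPM for the constitutive Hspa8.

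Iron genes for uptake, storage and intracellular transport were transcribed, while the gene of the iron exporter was not detected. Of 34 iron handling genes 20 reached a mean TPM of 1, against 20.6% of all genes. In all 4 libraries 9 had 0 counts, a smaller share than the 59.8% of all genes. Besides Tfrc, the abundant genes were the iron chaperones Pcbp2 (982 ± 27.96 TPM) and Pcbp1 (604 ± 26.8 TPM) and the ferritin subunits. Fth1, the ferroxidase subunit of ferritin, was at 542, 618, 585 and 594 TPM by mouse and Ftl1, the light subunit, at 512, 552, 509.5 and 521 TPM. Mouse 2, the lowest for Tfrc, was the highest for both subunits, and Fth1 held 52.7% ± 0.930 of ferritin TPM. Ncoa4, which delivers ferritin to lysosomes, was at 45.6 ± 3.92 TPM. The importers Slc11a2 (DMT1) and Slc39a14 (ZIP14) were at 24.9, 17.98, 17.4 and 26.8 TPM and 26.6, 24.1, 30.8 and 29.2 TPM. Slc11a2 was higher in mice 1 and 4 than in mice 2 and 3 without overlap, as were 18.2% of all genes with a mean TPM of at least 1. The mitochondrial importers Slc25a37 and Slc25a28 were at 24.3 ± 1.89 and 22.8 ± 3.12 TPM.

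The known cellular iron exporter, ferroportin, was not detected. Its gene Slc40a1 had 0 counts in all 4 libraries, for which 3 counts per library would equal 0.0809 to 0.122 TPM. The ferroxidase gene Heph, the hormone gene Hamp, the mitochondrial ferritin gene Ftmt, Hfe, Lcn2 and the reductase genes Steap1, Steap2 and Steap4 likewise had 0 counts. The remaining reductase of that family, Steap3, was at 0.595 ± 0.16 TPM. Export of haem was represented by Flvcr1 at 27.2 ± 0.888 TPM. Of the haem-degrading oxygenases, the constitutive Hmox2 was at 69.6 ± 4.92 TPM and the inducible Hmox1 at 0.91, 1.55, 1.9 and 1.82 TPM by mouse. Hmox2 held 97.8% ± 0.740 of the TPM of this pair, and Bach1, the haem-sensing repressor of Hmox1, was at 1.8 ± 0.368 TPM. The plasma iron carriers and ferroxidases Trf and Cp averaged 0.0225 and 0.177 TPM, and the second transferrin receptor gene Tfr2 0.16 TPM.

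Cells sense iron through the iron regulatory proteins, Aco1 and Ireb2, which bind a hairpin called the iron-responsive element when iron is scarce. Binding in the 5′ UTR blocks translation, and binding in the 3′ UTR protects the transcript. Both regulators were present at similar levels, Aco1 at 20.5, 22.2, 20.6 and 22.4 TPM and Ireb2 at 26.03, 22.3, 25.6 and 23.04 TPM by mouse, and Fbxl5, which degrades Ireb2, was at 18.9 ± 2.67 TPM. A motif of a C, a stem of 5 base pairs (G-U pairs allowed) and a loop written CAGTGN with N not G was searched on the transcript strand of all UTRs in the GENCODE M21 transcripts (build GRCm38). It was found in 122 of 21829 protein-coding genes (0.559%), in 73 of 9542 detected protein-coding genes (0.765%), and in 6 of 87 iron, iron-sulphur, haem and citrate cycle genes (6.90%). A match is a description of letters and not a test of binding. The sites of 5 of these genes are shown because their transcripts ranged from undetected to the level of ferritin, with 5 bases on each side and the loop in capitals.
Fth1, 5′ UTR: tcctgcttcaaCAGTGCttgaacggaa
Ftl1, 5′ UTR: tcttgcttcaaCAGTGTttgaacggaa
Slc40a1, 5′ UTR: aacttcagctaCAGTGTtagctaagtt
Alas2, 5′ UTR: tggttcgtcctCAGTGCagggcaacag
Tfrc, 3′ UTR, site 1: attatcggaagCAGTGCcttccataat
Tfrc, 3′ UTR, site 2: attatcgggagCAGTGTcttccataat
Tfrc, 3′ UTR, site 3: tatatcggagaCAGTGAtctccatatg
Tfrc, 3′ UTR, site 4: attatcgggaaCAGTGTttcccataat

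The same element in the 5′ UTR thus occurred in transcripts at very different levels. Fth1 and Ftl1 were above 500 TPM, the red cell haem gene Alas2 averaged 0.282 TPM and Slc40a1 had 0 counts. The Fth1 and Ftl1 sites differed at 2 of 27 bases. Tfrc held 4 sites in its 3′ UTR, the only one of these genes with a site there. These measurements are of RNA and say nothing of translation.

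Iron-sulphur cluster and haem synthesis genes mostly lay at moderate levels. Of 26 such genes 25 reached 1 TPM and none reached 100 TPM, with a median of 42.2 TPM. The scaffold gene of cluster assembly, Iscu, was at 82.9 ± 4.16 TPM and the carrier gene Glrx5 at 96.5 ± 3.7 TPM. Cytosolic assembly was represented by Nubp2 (99.97 ± 6.75 TPM) and Ciapin1 (86.6 ± 7.26 TPM). Alas1, the first enzyme of haem synthesis outside red cells, was at 49.1 ± 2.95 TPM. The lowest members above the threshold were the late assembly factor Iba57 (5.55 ± 0.181 TPM) and the mitochondrial transporter Abcb10 (1.42 ± 0.148 TPM).

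Cell cycle genes were high for DNA replication and low for mitosis. All 22 S phase genes reached 1 TPM, with a median of 128 TPM, whereas the 20 G2/M genes had a median of 6.03 TPM. The replication clamp gene Pcna was at 618, 663, 626 and 678 TPM by mouse and the helicase subunit gene Mcm5 at 398, 428, 411 and 486 TPM. The mitotic kinase gene Cdk1 was at 37.5, 52.3, 47.2 and 68.2 TPM, the topoisomerase gene Top2a at 44.8, 55.2, 44.3 and 61.9 TPM and the mitotic kinase gene Plk1 at 2.52, 3.81, 2.67 and 4.06 TPM. In all 5 genes mouse 4 was the highest and mouse 2 the next highest. The G1 kinase gene Cdk4 was abundant at 962 ± 54.6 TPM. Among the D cyclins Ccnd2 held 82.8% ± 2.81 and Ccnd1 averaged 0.163 TPM. The E cyclin genes Ccne1 and Ccne2 were at 18.9 ± 1.55 and 11.3 ± 2.61 TPM. The inhibitor genes Cdkn1b and Cdkn2c were at 6.88 ± 0.697 and 2.27 ± 0.60 TPM.

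The summed survival and stress lists varied little over the 4 cultures, with CVs of 1.76% and 0.443%. Bax, a pro-death member of the Bcl-2 family, was at 296 ± 1.99 TPM, the pro-survival Bcl2l1 at 242 ± 10.6 TPM and Mcl1 at 149 ± 4.5 TPM, while Bcl2 itself was at 7.95 ± 0.906 TPM. Antioxidant genes Prdx1 (611 ± 19.02 TPM), Txn1 (541 ± 13.3 TPM) and Gpx1 (469 ± 9.44 TPM) were abundant. Gpx4, which protects lipids from peroxidation, was at 125, 135, 146 and 169 TPM by mouse, with mouse 4 the highest. The Nrf2 target Nqo1 averaged 0.0925 TPM.

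Interferon response genes were present at low levels apart from antigen presentation. B2m (1411 ± 46.1 TPM) and the class I genes H2-K1 (1074 ± 47.4 TPM) and H2-D1 (478 ± 19.5 TPM) led the list. Of 32 genes 22 reached 1 TPM, against 20.6% of all genes. Irf1, a factor induced by interferon gamma, was at 28.6, 45.4, 27.4 and 41.8 TPM by mouse, and the peptide transporter gene Tap1 at 46.6, 58.6, 48.8 and 60.4 TPM. These genes were chosen after their values were seen. In both, mice 2 and 4 were above mice 1 and 3 without overlap, as in 14.2% of all genes with a mean TPM of at least 1. The antiviral genes Oas1a, Mx1 and Oasl2 averaged 0.10, 0.0275 and 0.0525 TPM, and Rsad2 had 0 counts.

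The spread between cultures was small for most genes. Among 7418 genes with a mean TPM of at least 10, the median CV was 6.20%, against 2.43% that counting alone would give. Of these genes 284 (3.83%) had a CV above 20%. The steadiest named genes were Txn2 (409 TPM, CV 0.157%), Timm8a1 (107 TPM, CV 0.176%) and Pabpc1 (1903 TPM, CV 0.284%). On the CPM scale their CVs were 1.61%, 1.92% and 1.66%. Counting alone would give 1.03%, 1.86% and 0.339% for these genes, more than their CVs of TPM. Such low values therefore do not single out steady genes. Of the 20 genes with the highest CV of TPM, 13 rested on fewer than 20 counts, most of them short RNAs such as Mir6516, Snora33 and Rny3. Some longer genes spread in TPM and little in CPM, with different effective lengths in the 4 libraries. Lbhd1 had a CV of 58.9% in TPM and 15.5% in CPM, and Mysm1 44.1% and 12.2%.

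A second ranking, added after the data were seen, used CPM and protein-coding genes with a mean count of at least 200. Of the 20 most variable of these 6733 named genes, 7 lay in the chromosome 6 stretch and 3 were on the S phase or G2/M lists. The stretch was itself found by its range of CPM between the mice. The count of 7 thus follows in part from that choice. Mid1, a ubiquitin ligase gene, was at 30.7, 27.03, 13.5 and 34.8 TPM by mouse, with mouse 3 the lowest. Erdr1, which lies near Mid1 at the end of the X chromosome, was at 853, 652, 529.9 and 958 TPM, also lowest in mouse 3. Lars2, a mitochondrial leucyl-tRNA synthetase gene, was at 68.05, 60.3, 128 and 87.3 TPM, with mouse 3 the highest. Rad51ap1, a DNA repair gene within the stretch, was at 21.5, 40.2, 21 and 41.1 TPM, high in mice 2 and 4.

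Among the 33 lists other than the markers of other cells and the sex-linked genes, 2 had a summed TPM with a CV above 10%. Of the 7 marker lists 5 did, with sums of at most 15.4 TPM. The G2/M genes summed to 193, 258, 216 and 298 TPM by mouse, a CV of 19.4%. The G1 list summed to 1846, 1905, 1874 and 2285 TPM, a CV of 10.4%, which fell to 5.60% once Ccnd2 was left out and to 1.58% without mouse 4. Without mouse 4, 1 list, that of G2/M, had a CV above 10%. Cytokine genes came next with 1185, 1071, 1167 and 978 TPM, a CV of 8.72%, which was 5.40% without mouse 4. The glycolysis list had a CV of 3.19%. The citrate cycle, iron and T cell receptor lists had CVs of 1.64%, 2.31% and 1.96%, and these depended on single cultures: they fell to 0.385% without mouse 2, 1.03% without mouse 1 and 0.773% without mouse 3.

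**Figure D4:**
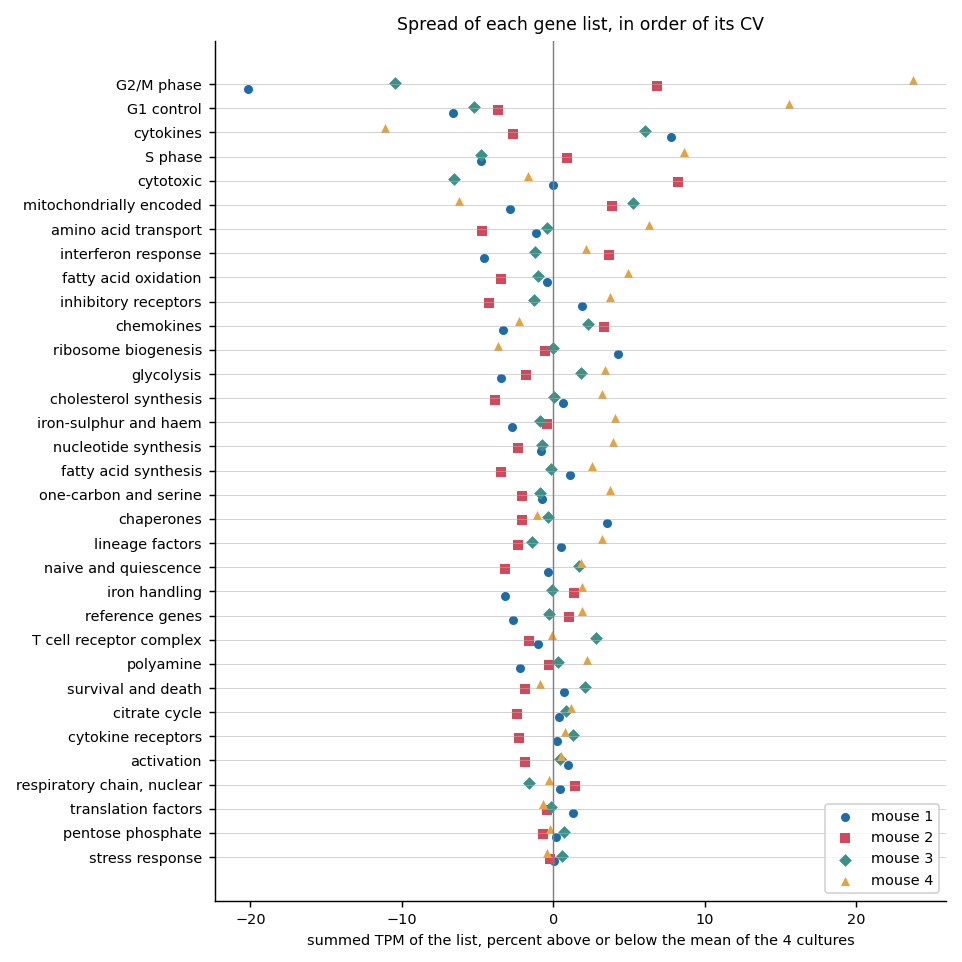
Summed TPM of each gene list in each control culture, as percent above or below the mean of the 4 cultures, 1 marker per mouse, with lists in order of their CV. The G2/M sum ran from 20.2% below to 23.8% above the mean, mouse 4 being the highest and mouse 1 the lowest, while the glycolysis, citrate cycle and iron lists stayed close to it.

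An order of the cultures and its opposite recurred across several lists. Among lists with at least 10 detected genes, those given here had the largest shares for these orders by TPM. Mice 2 and 4 were both above mice 1 and 3 in 18 of 22 S phase genes, 12 of 19 detected G2/M genes, 12 of 22 interferon response genes and 12 of 25 iron-sulphur and haem genes, against 14.2% of all genes with a mean TPM of at least 1. None of the genes of these 4 lists lies in the chromosome 6 stretch. On the CPM scale the counts were 20, 17, 15 and 11, where the share over all these genes was 19.9%. By CPM the iron-sulphur and haem list did not stand out. Larger shares held the order in other lists: 11 of 18 G1 genes, with Ccnd2 of the stretch among them, 7 of 13 one-carbon and serine genes and 6 of 12 reference genes such as Ppia. The opposite order, with mice 1 and 3 above mice 2 and 4, held in 10 of 16 detected cytokine genes, 7 of 14 cytokine receptor genes and 13 of 30 activation genes, against 22.0% of all genes, and on the CPM scale in 8, 8 and 10, against 19.9%. The pattern was noticed in these data, the genes of a list are not independent of each other, and its cause was not tested. Of the single genes named above, Irf1 and Tbx21 had mice 2 and 4 on top, and Il2 and Tnf had mice 1 and 3. They are a few among many genes, and the stretch around Cd69 was delimited by this order. None of them adds support to the pattern.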

How the data were processed

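mRNA of 4 control cultures was sequenced, and 1 table of gene results per library was used. Per the submitters' processing notes, the tools were RSEM 1.3.1, STAR 2.7.6a, DESeq2 1.26.0, DESeq, FastQC and R 3.6.3, and the build was GRCm39. What each tool did and the annotation release are not stated. The authors deposited RSEM expected counts per gene and TPM for each library, per the file headers. A deposited table of the whole series, taken here as a normalised signal, gave gene symbols and an alternative scale. Its normalisation is not stated.

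Levels, SDs and CVs were computed from the deposited TPM with Python 3.11.15, pandas 2.3.3 and numpy 2.4.6. CPM were computed from expected counts rounded to whole numbers, with TMM factors over 12254 genes in edgeR 4.0.16 (R 4.3.3). No model was fitted and no p-value is given, since there is 1 group. Symbols came from the deposited table for 13508 genes and from GENCODE M21 by gene ID for 38526, and 685 of 688 list symbols were matched. Copies were compared with BLAST 2.17.0. Chromosomal order was that of GENCODE M21 (GRCm38), used only for which genes neighbour each other. Depth was 25478740 to 37350654 counts per library, at which 3 counts on a gene with an effective length of 1000 bases equal 0.110 to 0.165 TPM; such limits cover counting error only. The labels tie each culture to a numbered mouse but do not say whether animals were pooled.

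Named genes were the 5 markers, the 30 genes of highest mean TPM, any member of the immune, glycolysis and iron lists and of the gene families, up to 6 highest and 4 lowest members of every other list, the 20 highest and 10 lowest CVs at a mean TPM of at least 10, and sex-linked genes. Other genes are said to be chosen after their values were seen. Members and lists were chosen with earlier results of these data known. Alternatives were leaving out each culture, other thresholds, CPM, the median, the signal table and rescaling without mitochondrially encoded genes, their pseudogene copies kept. The order and neighbour steps and the leave-outs of Ccnd2, Cd69 and mouse 3 were added after seeing the data. The calculations were checked on simulated data. Results for some list members are not reported here.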

Additional observations from a re-analysis of the deposited data

Results flagged for a closer look

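In 16 of 324 values looked at, 1 culture lay so far from the others that its gap to the nearest as a share of the whole range of the 4 cultures exceeded Dixon's 95% critical value. Chance flags about 1 in 20 groups, which is close to this share, and the values are not independent of each other. Of the 16, mouse 1 stood apart in 6, mouse 3 in 6, mouse 2 in 3 and mouse 4 in 1.

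Mouse 1 was the lowest for the T cell receptor genes Cd3e, at 182.41 TPM against 206 to 208 TPM in the other cultures, and Lck, at 310.8 TPM against 328 to 329.6 TPM. It was the highest for the quiescence gene Slfn2, at 426.85 TPM against 394 to 399 TPM. Mysm1, a histone deubiquitinase gene, was at 16.93 TPM in mouse 1 and at 7.69 to 8.21 TPM elsewhere, with a shorter effective length in that library. Mir6516 (49.95 TPM) and Ms4a1 (0.05 TPM) were listed above 0 in mouse 1 alone.

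Mouse 3 was the highest for Il7r, at 2.05 TPM against 0.75 to 0.92 TPM, and for mt-Atp8, at 10150.5 TPM against 8373 to 8630.5 TPM. The haemoglobin genes Hba-a1 (5.22 TPM) and Hbb-bs (2.9 TPM) and the transferrin gene Trf (0.09 TPM) were listed above 0 in mouse 3 alone. In the same culture Pkm held 99.9944% of pyruvate kinase TPM and 100% in the others. Mouse 2 was the lowest for the orphan receptor gene Nr4a3, at 70.86 TPM against 87.4 to 90.01 TPM. It was the highest for Pabpc1, at 1911.3 TPM against 1900.3 to 1900.8 TPM, and for Rpl41, at 6795.9 TPM against 6613 to 6625 TPM. Mouse 4 had the highest sum of the G1 list, 2284.98 TPM against 1846 to 1905 TPM.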

How the results depend on the processing

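No paired analysis was possible because only the control group was used and no result comes from a test. Leaving out each culture in turn gave 10971 to 11021 detected genes (10872 with all 4), 22.5% to 22.7% of TPM in the 50 most abundant genes, 538 to 541 list members at 1 TPM (541), 13 gene families with a leader at 90% (13) and 202 to 203 named genes at 1 TPM (204). The median CV ran from 5.42% without mouse 2 to 6.34% without mouse 3. From 1 to 3 lists had a CV above 10%, and without mouse 4 only the G2/M list did. With Ccnd2 and Cd69 left out of their lists, 1 list did. Rescaling without mitochondrially encoded genes gave 22.2% of TPM in the top 50. The pseudogene copies of these genes were kept, so mitochondrial reads assigned to them stayed in. The median CV was 4.83% by CPM, 6.88% at a minimum mean TPM of 5, 4.51% at a minimum of 50, and 5.97% in the deposited signal table. Of 1553 alternative means of single named genes 43 moved by more than 1 SD. Of 165 alternative CVs of list sums 52 moved by more than the SD of the values that leave out 1 culture, and 15 of 135 alternative shares of a family's leading gene moved by more than the SD over the cultures. Il2rg led its receptor chains with 62.4% of TPM and 39.9% of CPM, and the leading Nr4a gene changed with the scale: Nr4a1 held 55.3% of TPM and 43.3% of CPM, and Nr4a3 41.7% of TPM and 54.0% of CPM. Depth limits statements on genes near 1 TPM, where counts were few.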

Other observations

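T cell receptor V segments, chosen after their values were seen, were spread widely in these cultures. Of 22 Trbv segments 21 reached a mean TPM of 1, and the highest, Trbv31, held 10.8% ± 0.690 of the summed Trbv TPM (n = 4). It was at 73.0, 69.1, 76.6 and 84.1 TPM in mice 1 to 4, and the 5 highest segments, Trbv31, Trbv13-1, Trbv13-2, Trbv5 and Trbv1, held 49.8% together. Of 109 Trav segments 97 reached 1 TPM, and the highest, Trav7-2, held 4.98% ± 0.508. Trav14-2 was at 24.5, 27.5, 15.4 and 27.6 TPM, lowest in mouse 3. Several Trav segments are near-identical copies, so reads can be split between them. Of 115 Ighv segments none reached 1 TPM and 114 had 0 counts, while the summed Trbv segments were at 703 ± 25.2 TPM.

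Several of the most abundant genes annotated as noncoding, also chosen after their values were seen, were hosts of small nucleolar RNAs, which guide the modification of ribosomal RNA. Gas5 was at 662, 677, 678 and 687 TPM in mice 1 to 4 and was the highest, and AI506816 was at 469 ± 10.6 TPM. Snhg1 was at 322 ± 8.92 TPM and Zfas1 at 315.5 ± 10.3 TPM. Bc1 was at 105, 110.4, 173 and 144 TPM, with mice 3 and 4 above mice 1 and 2. Some identical copies of ribosomal protein genes took a share of their reads as well. The pseudogene Gm10443 matched Rps28 over 210 bases with 0 mismatches, and Rps28 held 59.3% of the summed TPM of the pair.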
